A study of Macaca mulatta with 20 samples.

Results

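Levels of 8 genes of antigen receptor recombination and lipid antigen presentation, RAG1, RAG2, DNTT, CD1A, CD1B, CD1C, CD1D and CD1E, were read in thymus and in 4 other sources of rhesus macaque RNA. The members were chosen by name, out of 21951 genes that the annotation of the arrays named. Every probe set with exactly 1 gene symbol that was a member was used, 9 probe sets of 6 genes on the rhesus arrays and 12 probe sets of 8 genes on the human arrays. No probe set of the rhesus arrays was named RAG1 or CD1D, by symbol or by gene number, so these 2 genes were read on the human arrays alone.

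Total RNA came from cerebral cortex, immortalized fibroblasts (a cell line), pancreas, testis and thymus of rhesus macaques. The labels name no treatment, and they say nothing of the number, age or genotype of the animals. Aliquots of each RNA were read on 2 Rhesus Macaque Genome Arrays and on 2 Human Genome U133 Plus 2.0 Arrays, 20 arrays in all. The former were designed for the rhesus genome and the latter for the human genome. Labelled cRNA was made from 5 ug of total RNA. In the labels, arrays that share a source are technical replicates, so p-values measure the spread between arrays of 5 RNA preparations and not the spread between animals. The thymus label was checked against 16 genes of thymocytes, the developing T cells that fill this organ. This list, like the members and the other lists, was chosen with earlier results of these data known. Of the thymocyte genes, 8 of 8 with a rhesus probe set and 12 of 15 with a human probe set were higher in thymus, and 0 were lower. Genes that mark the other 4 sources were lower in thymus in 12 of 12 cases with rhesus probes and in 10 of 12 with human probes. Over all genes, 16.7% and 9.65% were higher in thymus and 18.1% and 10.1% lower, on the rhesus and human arrays.

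RAG1 and RAG2 form the enzyme that cuts DNA beside the V, D and J segments of antigen receptor genes in developing lymphocytes, and DNTT (terminal deoxynucleotidyl transferase) adds bases without a template where the segments are joined. CD1 proteins resemble MHC class I molecules and present lipids to T cells. CD1A, CD1B and CD1C belong to group 1 and reach the cell surface, CD1D belongs to group 2 and is seen by natural killer T cells, and CD1E stays inside the cell, where it helps to load lipids. Cortical thymocytes are known to make all of these transcripts, and dendritic cells and Langerhans cells also make group 1 CD1.

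The log2 expression value of a probe set was given for each array, so a difference of 1 is a factor of 2 where both levels are well above background. Bacterial control transcripts that were not added to the samples read between 1.91 and 3.80 with rhesus probes and between 2.12 and 3.29 with human probes. Levels in this range are called the floor. A difference from a level at the floor is not an exact fold, and its standard error (SE) covers the spread between arrays alone. Array medians ran from 3.24 to 3.53 and from 2.90 to 3.05. The 9 probe sets of spiked hybridization controls averaged 10.70 in pancreas against 9.12 to 9.90 elsewhere with rhesus probes, and 10.98 against 9.57 to 10.11 with human probes. Thymus differed from the mean of the other 4 sources in these controls by -0.08 and -0.18. Differences were fitted with limma across all probe sets of an array type, and a call needed both an adjusted p (Benjamini-Hochberg) under 0.05 and a log2 difference of 1 or more in size.

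The members were higher in thymus on both array types. With rhesus probes, 9 of 9 member probe sets were called higher in thymus than the mean of the other 4 sources, against 14.7% of all probe sets tested. Their log2 differences ran from 1.23 to 9.19, with a median of 7.44. With human probes, 10 of 12 were called higher, against 7.46% of all probe sets, with differences from 2.34 to 7.34 among those called. When thymus was set against each other source by itself, 8 of 9 rhesus probe sets were called higher in all 4 comparisons, against 5.80% of all probe sets, and 10 of 12 human probe sets were, against 2.96%. The rhesus exception was a probe set of CD1E, and the human exceptions were a probe set of RAG1 and a probe set of DNTT. Across all probe sets the median difference was -0.05 with rhesus and -0.03 with human probes. Since the RNA is from whole tissue, more cells of a type and more RNA per cell cannot be told apart in any of these values.

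**Figure D1:**
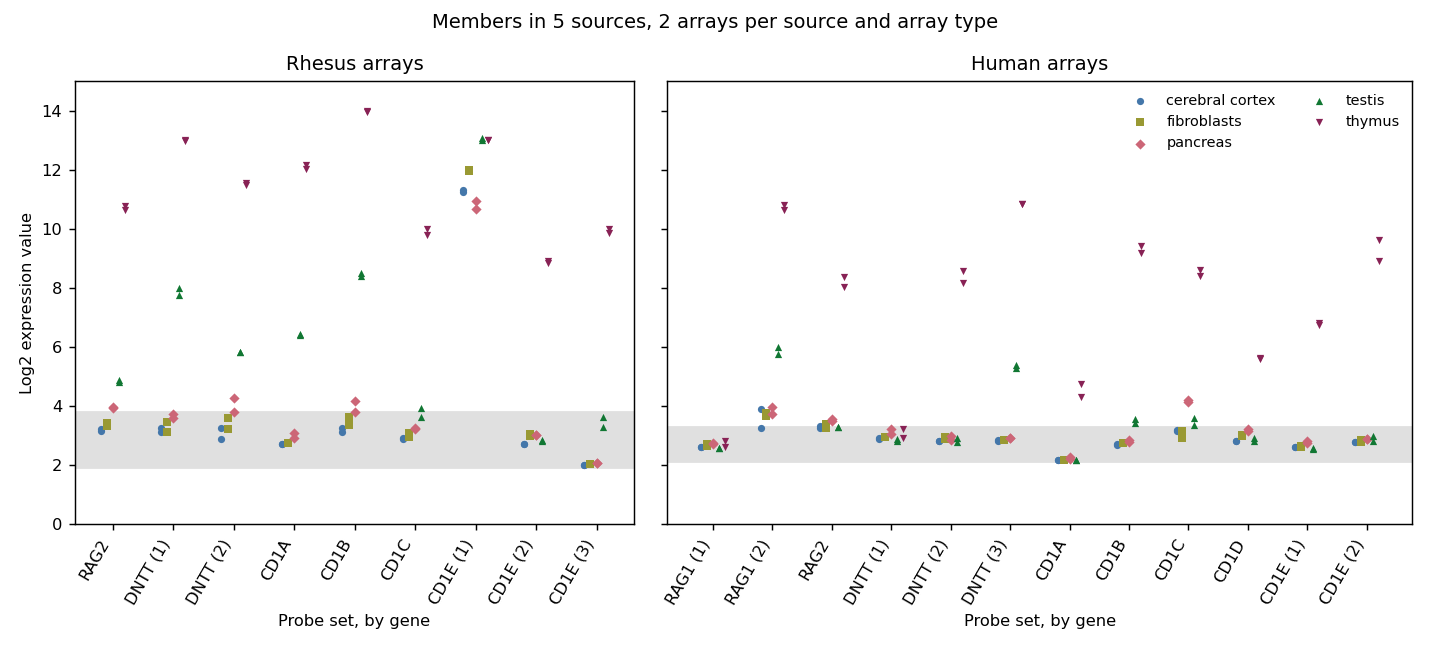
Log2 expression values of every member probe set on each of the 20 arrays, by source, with the range of the unspiked bacterial controls in grey. Numbers in brackets give the order of the probe sets of a gene. For the rhesus arrays DNTT (1) is MmuSTS.2582.1.S1_at, DNTT (2) is MmugDNA.41966.1.S1_at and CD1E (1) to (3) are Mmu.8948.1.S1_at, MmugDNA.22532.1.S1_at and MmugDNA.32378.1.S1_at. For the human arrays RAG1 (1) and (2) are 1554994_at and 206591_at, DNTT (1) to (3) are 1566362_at, 1566363_at and 210487_at, and CD1E (1) and (2) are 208592_s_at and 215784_at. The thymus arrays stand above all others for 8 of the 9 rhesus and 10 of the 12 human probe sets.

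RAG1, the subunit that holds the catalytic site, was read by 2 human probe sets. The first, 206591_at, read 10.79 and 10.63 on the thymus arrays and 5.78 and 5.99 on the testis arrays. It read 3.27 and 3.91 in cortex, 3.68 and 3.76 in fibroblasts, and 3.71 and 3.96 in pancreas. Thymus was thus far above testis, testis was above the other 3 sources, and no source overlapped with thymus. The thymus difference was 6.45 (SE 0.17, adjusted p = 1.76e-06 from limma), and testis exceeded each of cortex, fibroblasts and pancreas by at least 2.05. Cortex, fibroblasts and pancreas were not called different from each other, with gaps of 0.13 and 0.12 between neighbours in this order. The second probe set, 1554994_at, stayed at the floor in every source, between 2.59 and 2.81, and its thymus difference was 0.06 (SE 0.05, adjusted p = 0.394). The 2 probe sets of RAG1 therefore disagree, and all that follows on RAG1 rests on 206591_at.

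RAG2 is the partner of RAG1 in the cutting enzyme and binds modified histones at open chromatin. Its rhesus probe set, MmuSTS.3102.1.S1_at, read 10.76 and 10.63 on the thymus arrays and 4.80 and 4.89 on the testis arrays. Pancreas read 3.92 and 3.98, fibroblasts 3.32 and 3.42, and cortex 3.23 and 3.15. The ranges of the 5 sources did not overlap, and the smallest gap, 0.18 between fibroblasts and cortex, was not called (adjusted p = 0.0679 from limma). The thymus difference was 6.86 (SE 0.05, adjusted p = 3.90e-09). Testis was above pancreas by 0.89, which is under the minimum difference for a call. The human probe set 215117_at read 8.37 and 8.03 in thymus. All 8 arrays of the other sources read between 3.24 and 3.57. Testis, at 3.28 and 3.30, lay within the range of fibroblasts, at 3.24 and 3.39. The human thymus difference was 4.85 (SE 0.09, adjusted p = 3.69e-07).

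DNTT was read by 2 rhesus and 3 human probe sets, of which 4 were called higher in thymus. MmuSTS.2582.1.S1_at read 13.00 and 12.96 in thymus and 7.75 and 8.0 in testis, and the arrays of cortex, fibroblasts and pancreas read from 3.10 to 3.72. MmugDNA.41966.1.S1_at read 11.50 and 11.56 in thymus, 5.83 and 5.84 in testis and from 2.88 to 4.28 in the other 3 sources. Both rhesus probe sets gave the order thymus, testis and then the rest. Their thymus differences were 8.48 (SE 0.11, adjusted p = 2.25e-08 from limma) and 7.44 (SE 0.16, adjusted p = 1.73e-07), and testis exceeded each of the 3 lower sources by at least 4.21 and at least 1.79. The human probe set 210487_at showed the same order, with 10.82 on both thymus arrays, 5.38 and 5.29 in testis and values from 2.81 to 2.91 in the other 3 sources. Its thymus difference was 7.34 (SE 0.03, adjusted p = 1.26e-09). A second human probe set, 1566363_at, read 8.58 and 8.18 in thymus but 2.78 and 2.93 in testis, at the floor with the other 3 sources, and its thymus difference was 5.50 (SE 0.10). The third, 1566362_at, was at the floor everywhere, with 2.92 and 3.21 in thymus, and its difference of 0.12 (SE 0.08, adjusted p = 0.332) was not called.

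CD1A, a surface marker of cortical thymocytes and Langerhans cells, showed the widest gap between array types of the members. The rhesus probe set MmugDNA.20768.1.S1_at read 12.15 and 12.03 in thymus and 6.42 and 6.40 in testis. Cortex, fibroblasts and pancreas were all at the floor, from 2.70 to 3.09. Thymus was far above testis and testis far above the rest, with no overlap. The thymus difference was 8.38 (SE 0.05, adjusted p = 2.62e-09 from limma), and testis exceeded each of the 3 lower sources by at least 3.42. With human probes, 210325_at read 4.75 and 4.30 in thymus and from 2.16 to 2.27 on the 8 arrays of the other sources. That difference was called at 2.34 (SE 0.11, adjusted p = 1.59e-05), but testis, at 2.18 and 2.17, lay with cortex and fibroblasts.

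CD1B, which has a deep groove for long lipids, had a thymus difference on the rhesus arrays of 9.19 (SE 0.11, adjusted p = 1.81e-08 from limma), larger than that of any other member there. MmugDNA.14303.1.S1_at read 13.96 and 13.98 in thymus, 8.51 and 8.39 in testis, and 4.17 and 3.81 in pancreas. Fibroblasts read 3.35 and 3.61 and cortex 3.14 and 3.25. Testis was above pancreas by 4.46, a called difference, whereas pancreas, fibroblasts and cortex lay within 0.80 of each other and were not called apart. The human probe set 206749_at read 9.18 and 9.42 in thymus, 3.57 and 3.44 in testis and from 2.68 to 2.84 in the other 3 sources. Its thymus difference was 6.36 (SE 0.07, adjusted p = 4.60e-08). Here testis was above pancreas by 0.70, with an adjusted p of 0.000978 from limma but under the minimum difference.

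CD1C, the third surface member of group 1, read 10.01 and 9.78 in thymus with the rhesus probe set MmugDNA.14306.1.S1_at. Testis read 3.93 and 3.61, pancreas 3.24 on both arrays, fibroblasts 2.95 and 3.07, and cortex 2.89 and 2.92. Testis was the highest of these 4, but by 0.53 over pancreas, which was not called. The thymus difference was 6.66 (SE 0.10, adjusted p = 3.64e-08 from limma). The human probe set 205987_at read 8.61 and 8.41 in thymus and gave pancreas, at 4.19 and 4.12, as the second source. Testis followed at 3.34 and 3.60, cortex at 3.15 and 3.18 and fibroblasts at 2.91 and 3.16. Pancreas exceeded fibroblasts by 1.12, a called difference (adjusted p = 0.000895), and testis by 0.69 and cortex by 0.99, which were not called. No other human member probe set put pancreas above a lower source by the minimum difference. The thymus difference of CD1C there was 5.05 (SE 0.10, adjusted p = 4.86e-07).

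CD1D, which presents glycolipids to natural killer T cells, was read by 1 human probe set, 205789_at. It read 5.60 and 5.61 in thymus and from 2.81 to 3.23 on the 8 arrays of the other sources, all at the floor. The thymus arrays did not overlap with any other, and the difference was 2.63 (SE 0.03, adjusted p = 1.10e-07 from limma). Pancreas, at 3.23 and 3.15, was the second source, 0.19 above fibroblasts, and no pair of the 4 lower sources was called different.

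CD1E was called higher in thymus by all 5 of its probe sets, but the rhesus ones gave 2 patterns. The rhesus probe set MmugDNA.22532.1.S1_at read 8.90 and 8.83 in thymus and from 2.70 to 3.04 on the other 8 arrays. MmugDNA.32378.1.S1_at read 9.98 and 9.87 in thymus, 3.29 and 3.62 in testis and from 2.00 to 2.08 in the other 3 sources. Their thymus differences were 5.97 (SE 0.03) and 7.54 (SE 0.08). The third, Mmu.8948.1.S1_at, was high in every source, with 11.24 and 11.30 in cortex, 11.96 and 12.00 in fibroblasts and 10.65 and 10.95 in pancreas. It read 13.07 and 12.99 in testis and 13.00 on both thymus arrays. Thymus and testis overlapped here, with testis 0.03 above thymus (adjusted p = 0.833 from limma), and the thymus difference was 1.23 (SE 0.07, adjusted p = 1.52e-05). This probe set had the highest mean of the 3, so it stands for CD1E on the rhesus arrays where a gene is given by its brightest probe set. Among human probe sets, 215784_at read 9.62 and 8.90 in thymus and 208592_s_at read 6.80 and 6.73, against at most 3.00 and at most 2.82 in any other source, and their thymus differences were 6.42 (SE 0.17) and 4.12 (SE 0.03).

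**Figure D2:**
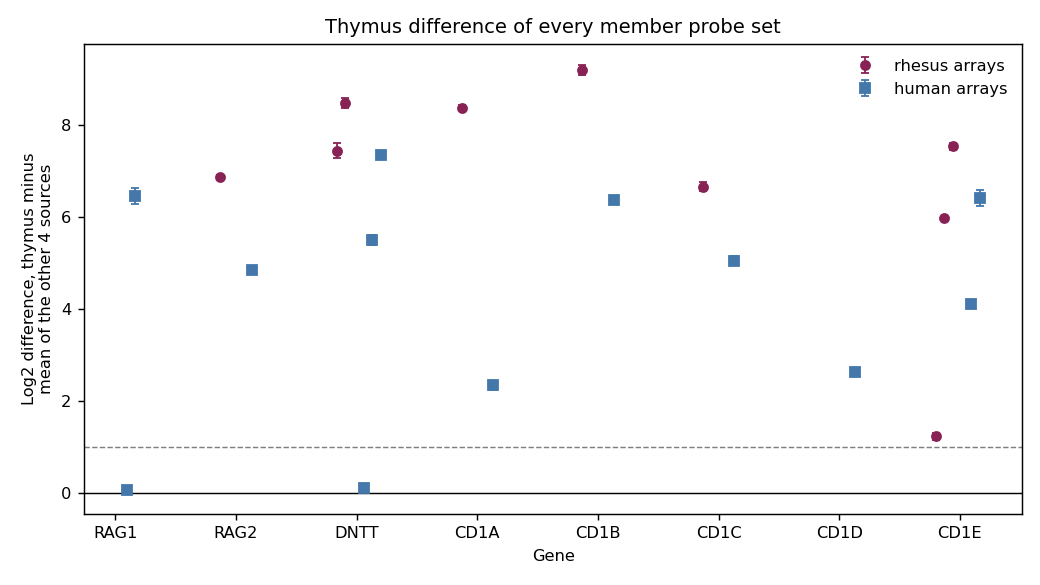
Log2 difference between thymus and the mean of the other 4 sources for every member probe set, by gene and array type, with bars of 1 SE from limma (hidden by the point where small) and a dashed line at the minimum difference of 1. All 9 rhesus probe sets lie above the line, from 1.23 to 9.19, whereas 1 human probe set of RAG1 and 1 of DNTT lie near 0.

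Testis was the source next to thymus for most members on the rhesus arrays. It was the highest of the other 4 sources for 8 of 9 rhesus probe sets but for 4 of 12 human ones, where pancreas was the highest for the remaining 8, most of them at or near the floor. With rhesus probes 6 of 9 were called higher in testis than in each of cortex, fibroblasts and pancreas, against 7.10% of all probe sets. These 6 were both probe sets of DNTT, those of CD1A and CD1B, and 2 of CD1E, MmugDNA.32378.1.S1_at and Mmu.8948.1.S1_at. With the spiked controls subtracted, 4 of 9 were called and both CD1E probe sets lost the call. Of the human probe sets, 2 of 12 were called higher in testis, RAG1 206591_at and DNTT 210487_at, against 3.17% of all probe sets. Leaving aside Mmu.8948.1.S1_at, testis was below thymus by 5.10 to 6.47 on the log2 scale for the 8 other rhesus probe sets. The differences, testis minus thymus, were -5.85 for RAG2, -5.10 and -5.69 for DNTT, -5.68 for CD1A and -5.52 for CD1B. For CD1C the difference was -6.12 and for CD1E -6.03 and -6.47, all with testis at the floor. On the human arrays it was -4.83 for RAG1 206591_at and -5.49 for DNTT 210487_at, the 2 called higher in testis. The other human probe sets called in thymus had testis at or near the floor. Their differences ran from -2.35 for CD1A to -6.36 for CD1E 215784_at, with CD1B at -5.80.

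Probe sets chosen for a high level in thymus also had a testis minus thymus difference near that of most rhesus member probe sets, which the selection largely sets. Probe sets of any gene were taken, after their values were seen, if thymus averaged at least 10 and cortex, fibroblasts and pancreas each at most 4. There were 66 on the rhesus arrays, 4 of them member probe sets. Of the 66, 52 were called higher in testis than in each of the other 3 sources, against 7.10% of all probe sets. The 66 had a median testis minus thymus difference of -6.01, with quartiles of -6.36 and -5.68. The human arrays held 20, of which 2 were member probe sets and 11 were called, against 3.17% of all probe sets. The 20 had a median difference of -5.73, with quartiles of -6.90 and -5.32. With thymus at 10 or more, a testis level at the floor by itself gives a difference of this size or larger. Low levels in the other 3 sources were also part of the selection, which makes the call in testis easier to reach. The counts called in testis depend on the limit set for thymus. With an average of at least 8 there, 77 of 238 rhesus and 18 of 82 human probe sets were called higher in testis. Testis lay a median of 0.42 and 0.38 above the mean of the other 3 sources, against 2.08 and 1.98 at the limit of 10. The median testis minus thymus difference at the limit of 8 was -5.80 and -5.57. With no limit on pancreas, the 94 such rhesus probe sets lay a median of 2.43 above cortex and fibroblasts in testis and 0.41 in pancreas, and the 22 human ones 2.22 and 0.11. Of the 94, 80 were called above both cortex and fibroblasts in testis and 21 in pancreas, and of the 22, 14 and 2. For these counts and those that follow, the share over all probe sets was not computed. Low levels in cortex and fibroblasts were part of the selection, which makes these calls easier to reach. Probe sets at 10 or more in testis, and at most 4 in cortex and fibroblasts, were read in the same way. Of 29 with rhesus probes, 11 were called in thymus, with a median of 0.26, and 14 in pancreas, with a median of 1.04. Of 5 with human probes, 1 was called in thymus and 4 in pancreas, with medians of 0.03 and 2.56. Probe sets at 10 or more in pancreas were read likewise. Of 101 with rhesus probes, 12 were called in thymus and 20 in testis, with medians of -0.03 and -0.05. Of 49 with human probes, 1 was called in thymus and 3 in testis, with medians of -0.01 and -0.02.

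Thymocyte genes in testis were called on the rhesus arrays for a minority and on the human arrays for none. With rhesus probes 3 of the 8 measured, CD8A, CD8B and TRAT1, were called higher in testis than in each of cortex, fibroblasts and pancreas, against 7.47% of all genes. CD8A, a chain of the CD8 coreceptor, averaged 13.3 in thymus, 7.40 in testis and at most 4.95 in the other 3 sources, and TRAT1, an adaptor of the T cell receptor, averaged 11.5, 5.40 and at most 2.81. The mean log2 level of the 8 genes was 4.24 to 4.44 on the testis arrays, 3.85 to 3.87 in cortex, 2.99 to 3.08 in fibroblasts and 3.05 to 3.24 in pancreas, against 10.28 to 10.43 in thymus. The cortex value includes ARPP21, which neurons also make. ARPP21 averaged 10.5 in cortex and 6.38 in testis, so it could not be called in testis. PTCRA, CD4, CD5 and CD7 were at the floor in testis with rhesus probes, at 2.86, 2.65, 2.94 and 2.36. PTCRA averaged 10.5 in thymus, but CD4, CD5 and CD7 averaged 8.83, 9.21 and 6.41. A drop of the size seen for most rhesus member probe sets ends at or near the floor for CD4, CD5 and CD7, so their levels cannot show one. PTCRA fell further than any member probe set, with a testis minus thymus difference of -7.59. Whether the thymocyte genes and the members share a source in testis was not tested. With human probes, 0 of 15 thymocyte genes were called higher in testis, against 4.22% of all genes. Some lay above cortex, fibroblasts and pancreas by less than the minimum difference, such as CD3D, at 4.82 against at most 3.96. Others did not, such as TRAT1, at 3.11 against at most 3.12. The 15 genes averaged 3.48 to 3.59 in testis, 3.37 in cortex, 2.84 to 3.00 in fibroblasts and 3.16 to 3.17 in pancreas. ARPP21 is again part of the cortex value, at 10.8. Markers of dendritic cells and of B cells were not called higher in testis on either array type, 0 of 10 and 0 of 7 with rhesus and 0 of 12 and 0 of 9 with human probes. Even in thymus their mean levels were 3.87 to 3.96 and 4.31 to 4.44 with rhesus probes. With human probes they were 3.57 to 3.78 and 3.69 to 3.81. From such levels a drop of the size seen for the members ends below the floor, so these counts do not show whether such cells are in testis. What these markers contribute to the testis levels of the members was not tested.

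**Figure D3:**
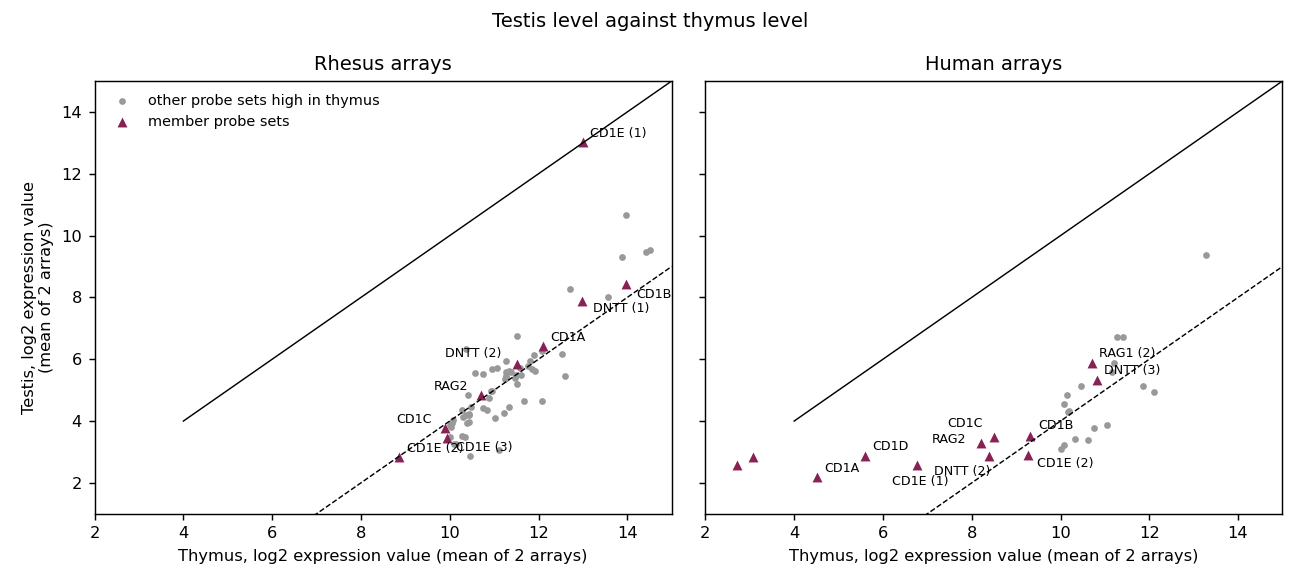
Mean log2 expression value of 2 arrays in testis (vertical axis) against that in thymus (horizontal axis), for the member probe sets and, in grey, for the other probe sets with a mean of at least 10 in thymus and at most 4 in each of cortex, fibroblasts and pancreas. The solid line marks equal levels and the dashed line a testis level 6 lower, and brackets number the probe sets of a gene in the order used for the levels by source. Apart from CD1E (1) on the solid line, the rhesus member probe sets lie 5.10 to 6.47 below it.

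The question of whether both array types give the same thymus difference was addressed for the 6 genes read on both. For this, the probe set of highest mean stood for its gene, in a fit of 11956 genes. For 5 of the 6 the difference was smaller on the human arrays, a call made for 8.66% of all genes, and for 1 it was larger, a call made for 8.89%. CD1A differed by 8.38 with rhesus and 2.34 with human probes, human minus rhesus -6.04 (SE 0.13, adjusted p = 2.97e-12 from limma on all arrays). CD1B had 9.19 and 6.36, a contrast of -2.83 (SE 0.13), RAG2 had 6.86 and 4.85, a contrast of -2.01 (SE 0.11), CD1C had 6.66 and 5.05, a contrast of -1.61 (SE 0.14), and DNTT had 8.48 and 7.34, a contrast of -1.14 (SE 0.12). CD1E went the other way, with 1.23 and 6.42, a contrast of 5.19 (SE 0.19). That contrast rests on Mmu.8948.1.S1_at: with the median of all probe sets of the gene it was -1.61, and with their mean 0.35. The array types have separate tables and different probe sets. A shift common to all arrays of a type cancels in such a contrast, but differences between probes and other effects of normalization do not.

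Genes that act with the recombinase were partly higher in thymus. Of 13 genes that repair the breaks made in V(D)J recombination, 5 of the 10 with a rhesus probe set were higher in thymus and 1 was lower, and 7 of the 12 with a human probe set were higher and 0 lower. Over all genes read in the same way 16.7% were called higher and 18.1% lower on the rhesus arrays, and 9.65% higher and 10.1% lower on the human arrays. The median difference of the list was 1.04 and 1.14. HMGB2, a DNA-bending protein that assists RAG binding, was higher by 4.82 and 4.38, and LIG4, the ligase that seals the joint, by 3.81 on the human arrays. DCLRE1C (Artemis), which opens the hairpin ends, was higher by 2.37 and 1.13, though its 2 other rhesus probe sets were lower, down to -3.70. Other higher genes were XRCC5 (Ku80), by 1.60 and 1.63, and PRKDC, the kinase that activates Artemis, by 1.22 and 1.35. For XRCC5, fibroblasts averaged above thymus, at 11.93 against 11.76 with rhesus and 10.97 against 10.48 with human probes. XRCC6 (Ku70) differed by 0.86 and 0.77, under the minimum difference, and 1 of its 4 rhesus probe sets was called, at 1.05. The polymerase POLL was lower on the rhesus arrays, with a difference of -2.66, and with human probes it was near the floor in all sources, at -0.21 (adjusted p = 0.314 from limma).

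Transcription factors known to act on RAG or DNTT were higher in thymus for 7 of 11 measured on the rhesus arrays, with 2 lower, and for 8 of 10 on the human arrays, with 0 lower. The shares over all genes were 16.7% and 9.65% higher and 18.1% and 10.1% lower. The median difference of this list was 4.09 and 4.28. GATA3, which directs cells to the T lineage, was higher by 8.37 and 8.78, and MYB, needed for early thymocytes, by 8.23 and 6.98. IKZF1 (Ikaros) was higher by 6.21 and 4.05, BCL11B by 5.61 and 6.92 and ETS1 by 6.27 and 4.96. Values of the E proteins, which bind E boxes, differed between the array types. TCF3, read by its brightest probe set, was lower on the rhesus arrays, at -4.36, with thymus at the floor at 3.09, and differed by 0.80 on the human arrays, with thymus at 7.49. Of its 7 rhesus probe sets 3 were called higher and 3 lower, from -4.36 to 2.46, and of its 14 human ones 1 was higher and 0 lower. TCF12 was lower with rhesus probes, at -1.24, and higher with human probes, at 3.15. SATB1, a chromatin organizer of thymocytes, differed by -0.20, not called, and by 4.51, called. Its brightest rhesus probe set was the exception, since the 3 other rhesus probe sets were called higher, by up to 7.77, and all 3 human ones were higher, by 4.22 to 7.58. FOXO1 was not called in thymus and read higher in testis, at 10.1 and 9.77, than in thymus, at 8.10 and 7.91.

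The genes that assemble CD1 and load its lipids did not share the thymus difference of CD1. Of 16 listed, 2 of 12 with rhesus probes were higher in thymus and 2 lower. With human probes 2 of 15 were higher and 1 lower. These counts are near the shares over all genes, 16.7% and 9.65% higher and 18.1% and 10.1% lower. The medians of the list were -0.13 and -0.17. B2M, the light chain that pairs with every CD1 protein, was high in all sources, and its difference of 0.99 and 0.84 was under the minimum, with the second rhesus probe set called at 1.04. The 2 higher genes were the same on both array types, CTSS, an endosomal protease, by 2.27 and 1.05, and GLA, which cleaves galactose from lipids, by 1.70 and 1.70. These are differences from a mean of 4 sources. Fibroblasts averaged above thymus for GLA, at 9.78 against 9.14 with rhesus and 9.05 against 8.02 with human probes. For CTSS they did so with human probes, at 4.96 against 4.82. NPC2, a carrier of lipids in lysosomes, was lower, at -1.28 and -1.26. MTTP, which transfers lipids to CD1 in the endoplasmic reticulum, was at the floor in all sources, and the chaperone CANX differed by -0.37 and -0.71.

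The genes beside the members on the chromosome were read as well, with neighbours taken from the RefSeq order of the T2T-MMU8v2.0 assembly. RAG2 and RAG1 lie between IFTAP and TRAF6, DNTT lies between BLNK and OPALIN, and the CD1 genes form 1 cluster in the order CD1E, CD1B, CD1C, CD1A and CD1D, with an unnamed locus between CD1B and CD1C. Of 17 listed genes near these loci, 4 of 13 with rhesus probes were higher in thymus and 1 lower. With human probes 5 of 16 were higher and 2 lower. Among all genes, 16.7% and 9.65% were called higher and 18.1% and 10.1% lower. IFTAP was lower in thymus, at -2.49 and -2.81, although it lies next to RAG2. TRAF6, next to RAG1, was higher by 2.23 with rhesus probes and at the floor with human probes, with a difference of 0.04. BLNK, a B cell adaptor next to DNTT, was higher by 3.90 and 3.41, with thymus means of 8.05 and 6.94. OPALIN, a myelin gene on the other side of DNTT, was above the floor in cortex alone, at 5.18, on the human arrays. The interferon-inducible genes PYHIN1, by 6.12 and 4.84, and IFI16, by 3.45 and 2.47, were higher. KIRREL1, near CD1D, differed by -0.38, not called, and by -1.18, called.

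**Figure D4:**
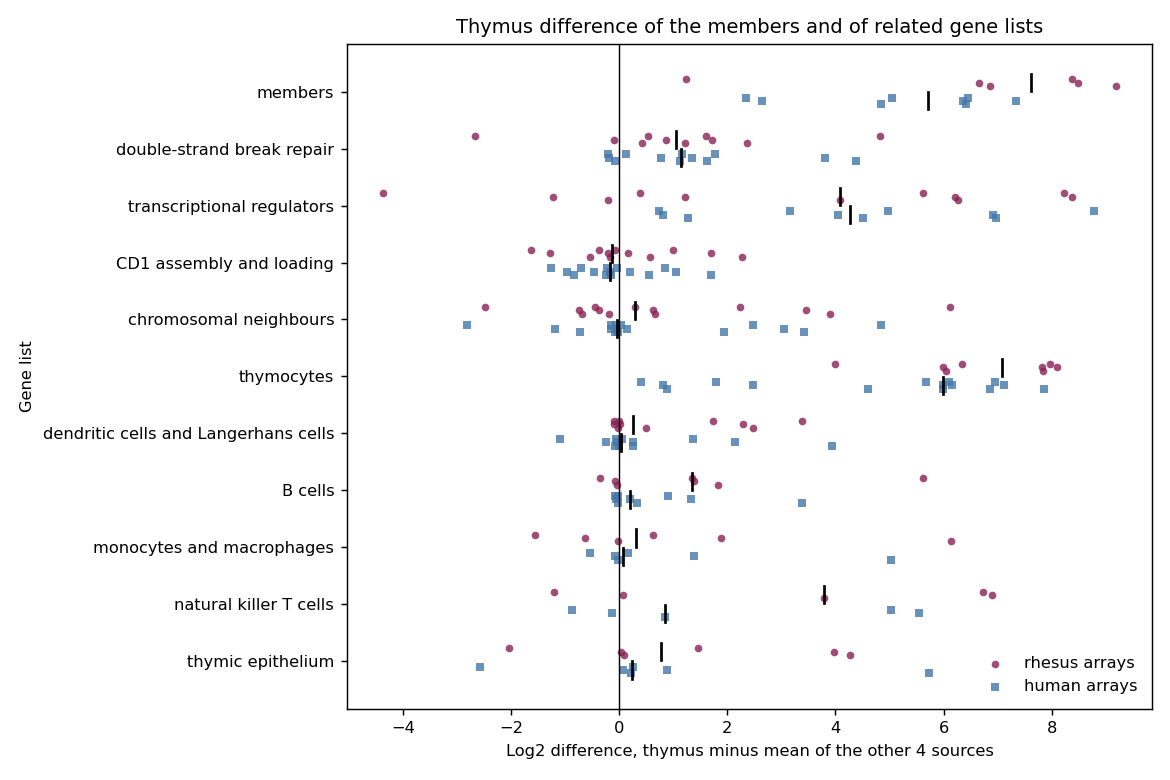
Log2 difference between thymus and the mean of the other 4 sources for each gene of the members and of 10 gene lists, given by its brightest probe set, by array type, with black bars at the medians. The members and the thymocyte list have medians of 7.62 and 7.08 on the rhesus and 5.71 and 5.98 on the human arrays, and the genes of CD1 assembly and loading lie around 0.

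The lists of other cell types that could carry these transcripts in thymus were described in the same way. Each count stands beside shares over all genes of 16.7% and 9.65% higher and 18.1% and 10.1% lower. Of the 8 thymocyte genes on the rhesus arrays, TRAT1 was higher by 8.09, CD8A by 7.97, PTCRA (the surrogate chain of the early receptor) by 7.84 and CD8B by 7.82. With human probes, LCK was higher by 7.86 and CD247 by 7.11, while PTCRA was higher by 1.79 and CD3E, CD5 and CD7 were not called, at 0.80, 0.40 and 0.89, though a second CD5 probe set was, at 1.23. Dendritic and Langerhans cell genes were higher in 4 of 10 with rhesus and 3 of 12 with human probes, with 0 and 1 lower. Their mean level in thymus was 3.87 to 3.96 and 3.57 to 3.78, against at most 3.20 and at most 3.29 on any array of another source. CD207 (langerin), which defines Langerhans cells, was at the floor in thymus, at 1.97 and 2.24, as were CLEC10A, at 2.14 and 2.86, and FCER1A, at 2.87 and 3.10. CD209 read 2.42 in thymus with rhesus probes and 3.33 with human probes, for which the other sources read from 3.31 to 3.60. CLEC9A, FLT3 and CD86 were higher with rhesus probes, by 3.38, 2.48 and 2.29, and a second CD86 probe set by 4.87. With human probes FLT3 and CD86 were not called, at 0.25 and 0.25, though 1 of 3 CD86 probe sets was, at 3.84. LAMP3 and XCR1 were higher with human probes, by 2.14 and 1.37, and not called with rhesus probes, at 0.49 and -0.01. CCR7 was higher by 1.74 and 3.93, and FSCN1 was lower with human probes, at -1.10.

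B cell genes, of interest because B cell precursors also use RAG and DNTT, were higher in 4 of 7 and 2 of 9, and 0 were lower. For this list and those below, the shares over all genes were again 16.7% and 9.65% higher and 18.1% and 10.1% lower. MS4A1 (CD20) was higher by 5.62 and 3.39, CD79A was higher by 1.35 and 1.32, and BLK was at the floor in thymus, at 1.92 and 2.32. The surrogate light chain genes that mark precursors differed. VPREB1 was at the floor in thymus, at 2.68 and 2.93, whereas IGLL1 was higher by 1.37 with rhesus probes (adjusted p = 1.76e-06 from limma), with thymus just above the floor at 3.99, and differed by 0.33, not called, with human probes. The mean level of the list in thymus was 4.31 to 4.44 and 3.69 to 3.81, against at most 3.35 and 3.32 on any array of another source. Monocyte and macrophage genes were higher in 2 of 6 and 2 of 6, with LYZ at 6.13 and 5.03 and MRC1 at 1.89 and 1.38, and 1 and 0 were lower. The lower gene was CD68, at -1.57 by its brightest rhesus probe set, though its second was called higher, at 1.64. CD14, at -0.63 and -0.54, and CSF1R, at 0.62 and 0.16, were not called. MARCO was at the floor in all sources. Genes of natural killer T cells, whose receptors see lipids on CD1D, were higher in 3 of 5 and 2 of 5, with 1 and 0 lower. Among them SLAMF1 was higher by 6.90 and 5.02. ZBTB16, the factor that defines these cells, was lower with rhesus probes, at -1.21, and not called with human probes, at -0.88. ZBTB16 was above the floor in thymus, at 5.80 and 6.23. Cortex averaged 9.02 and 8.98, pancreas 9.24 and 9.48, testis 6.73 and 6.82 and fibroblasts 3.02 and 3.17. Genes of thymic epithelium were higher in 3 of 6 and 1 of 6, with 1 and 1 lower. PSMB11 was higher by 4.27, TP63 by 3.97 and AIRE by 1.45 with rhesus probes, and KRT14 by 5.73 with human probes. AIRE was not called with human probes, at 0.25. EPCAM was lower, at -2.05 and -2.58, against a mean that includes pancreas at 11.2 and 10.6 and testis at 7.89 and 6.92. Thymus averaged 4.51 and 3.47, cortex 3.45 and 3.15 and fibroblasts 3.74 and 3.49. CCL25 was not called by its brightest rhesus probe set, but 1 of its 4 rhesus probe sets was called, at 6.04. FOXN1, the defining factor of this epithelium, read 2.77 and 3.07 in thymus. The part of each cell type in the thymus levels of the members was not tested.

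Genes with the pattern most like that of a member were found by the smallest root mean square (RMS) difference of log2 values over the 20 arrays, each gene centred on its mean on each array type, among the 11956 genes. This is a description of 5 sources, in which any gene that is high in thymus alone comes close. The nearest genes of RAG2 were DOCK8 (RMS 0.20), E2F2 (0.23) and SLAMF1 (0.28). CD1C had SLAMF1 (0.31), RAG2 (0.32) and DOCK8 (0.34), so that RAG2 was itself 1 of its 3 nearest genes. DNTT had MYB (0.38), CD1B (0.61) and CXCR4 (0.70), and CD1B had CXCR4 (0.55), DNTT (0.61) and MYB (0.70). CD1A had LIMD2 (0.54), TBATA (0.80) and PRAM1 (0.87), and LIMD2 had thymus differences of 8.02 with rhesus and 0.59 with human probes. CD1E, read from Mmu.8948.1.S1_at on the rhesus arrays, had no gene closer than IKZF3 (0.81).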

How the data were processed

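For each array type the authors deposited a table of log2 values per probe set, and the notes of the submitters on processing name RMA. Which version was run, and on which arrays at once, is not stated. Symbols came from the annotation of each array design, and probe sets with several symbols or none were not used for genes. The limma package (3.58.1, in R 4.3.3) fitted 52766 rhesus and 54613 human probe sets, controls left out, by lmFit and eBayes, without a replicate block and without further normalization. The spread is pooled over 5 sources with 2 arrays each, and the number of arrays limits precision. The fit was tested on simulated data. Members, lists and the rule for named genes (all member probe sets, all list genes and 3 nearest genes per member) were chosen with earlier results of these data known. Alternatives were other scalings, a dim filter, no minimum difference, an ordinary variance, the replicate block, each array left out and other ways to read a gene. Promoter motifs were not searched and no sequence was used here. The selection of probe sets high in thymus was made after values were seen.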

Additional observations from a re-analysis of the deposited data

Results flagged for a closer look

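The thymus difference, thymus minus the mean of the other 4 sources, differed between the array types for all 6 members read on both (a limma contrast over 20 arrays, called at an absolute contrast of at least 1). Human minus rhesus, the log2 contrast was -6.04 for CD1A, -2.83 for CD1B, -2.01 for RAG2, -1.61 for CD1C and -1.14 for DNTT. For CD1E it was 5.19, read on the rhesus arrays from the probe set that was high in every source.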

How the results depend on the processing

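The counts of member probe sets called higher in thymus were 9 of 9 on the rhesus and 10 of 12 on the human arrays under quantile normalization, with array medians or spiked controls subtracted, without a minimum difference, with an ordinary variance and without any 1 array. The dim filter, a source mean of at least 4, left 9 of 9 and 10 of 10, since it removed RAG1 1554994_at and DNTT 1566362_at. With the replicate block they were 9 and 10, and the counts higher than each other source were 8 and 10. The replicate numbers do not pair the sources: the correlation of replicate differences between sources lay between -0.03 and 0.02 on both array types. The contrast between array types was called for 6 of 6 members under each alternative that keeps the probe set with the highest mean. For CD1E it was 0.35 with the mean of its probe sets and -1.61, reversed, with their median; this follows from giving the probe set that is high in every source less weight. The count higher in testis on the rhesus arrays, an alternative added after seeing the data, was 7 with array medians subtracted, where RAG2 was added, and 4 with spiked controls subtracted. List counts, also added later, were within 1.5 times in 170 cases, and 6 others moved by 1 or 2 genes. Levels near the floor limit what differences between the lower sources can show.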
